A study of Mus musculus with 12 samples.

Results

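The 10 genes described here are markers of germ cells and of pluripotency: Pou5f1, Dppa3, Dppa5a, Nanos3, Ddx4, Dazl, Kit, Mybl1, Ifitm1 and Ifitm3. They were taken by symbol, and all 10 were found among the 24411 gene symbols listed for each of 12 RNA-seq libraries of fetal mouse gonads. The libraries came from NR5A1(+) cells, the somatic cells that express the nuclear receptor NR5A1, of mice with the genotype label Nr5a1-hCD271. In 3 groups, gonads of E10.8 embryos were cultured for 19.2 h, together with aorta, mesonephros and mesenchyme. These groups were control XY (n = 3), XY with 150 µM Dfo (n = 3) and control XX (n = 2). Dfo is deferoxamine, which chelates iron. The other groups were XY (n = 2) and XX (n = 2) gonads of E11.5, whose titles call them WT although the genotype label is the same, and whose collection the labels do not settle. Values are TPM, shares of each library's transcripts that are corrected for transcript length, so that levels of different genes can be set beside each other. The sequencing depth is not kept in TPM and is unknown.

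Primordial germ cells are set aside early in the embryo, migrate to the gonad and settle among its somatic cells. On arrival they still express pluripotency genes such as Pou5f1, and they then switch on germ cell genes such as Ddx4 and Dazl while preparing for meiosis or for the male pathway. The gonadal soma supplies the ligand of the KIT receptor, chemokines and retinoic acid, on which germ cell survival, movement and fate depend. Germ cells themselves do not express NR5A1, so a sort for NR5A1(+) cells is meant to leave them out.

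The libraries differed in ways that touch all of these genes. Between 14578 and 18931 symbols had a value above 0. The RNase P RNA Rpph1 took 15.3% to 23.6% of TPM in cultured XY libraries and 6.96% to 12.2% in the others, which lowers the share of all other RNAs. Dfo XY replicates 1 and 2 held Xist, the RNA of the inactive X chromosome, at 13.6 and 24.6 TPM, while the other 6 XY libraries had at most 0.90 TPM. Replicates 1 and 2 of each cultured XY group lay nearer to each other than to replicate 3: over 6667 genes of at least 20 TPM on average, the median absolute log2 difference was 0.08 and 0.09, against 0.19 to 0.20. All 7 markers of NR5A1-positive cells were above 0 in every library, with a summed level of 668 to 793 TPM in control XY culture, 494.5 to 573 in Dfo XY, 1312 to 1417 in control XX culture, 749 to 865 in E11.5 XY and 977 to 1159 in E11.5 XX. The labels do not say that replicates came from separate embryos, and p-values then reflect only how far these samples differ, which may be technical variation.

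The 10 genes stood at very different levels in these libraries, and which cells held their RNA was not tested. Ifitm1 was among the most abundant RNAs, at 161 to 628 TPM, above 98.3% of the 16133 genes tested by its mean. Ifitm3 stood at 7.43 to 57.9 TPM and Kit at 14.3 to 20.9 TPM. Dppa5a reached 19.5 TPM, Mybl1 11.8, Dppa3 10.5, Pou5f1 8.42 and Nanos3 4.95 TPM in their highest library. Ddx4, present in germ cells from gonad colonisation onwards, reached 1.44 TPM and Dazl 1.93 TPM, and Dazl was listed at 0 in 7 of 12 libraries. Ddx4 and Dazl, which mark germ cells most strictly, were the lowest of the 10, and Ifitm1, Ifitm3 and Kit, which other cell types are known to express too, were the highest.

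**Figure D1:**
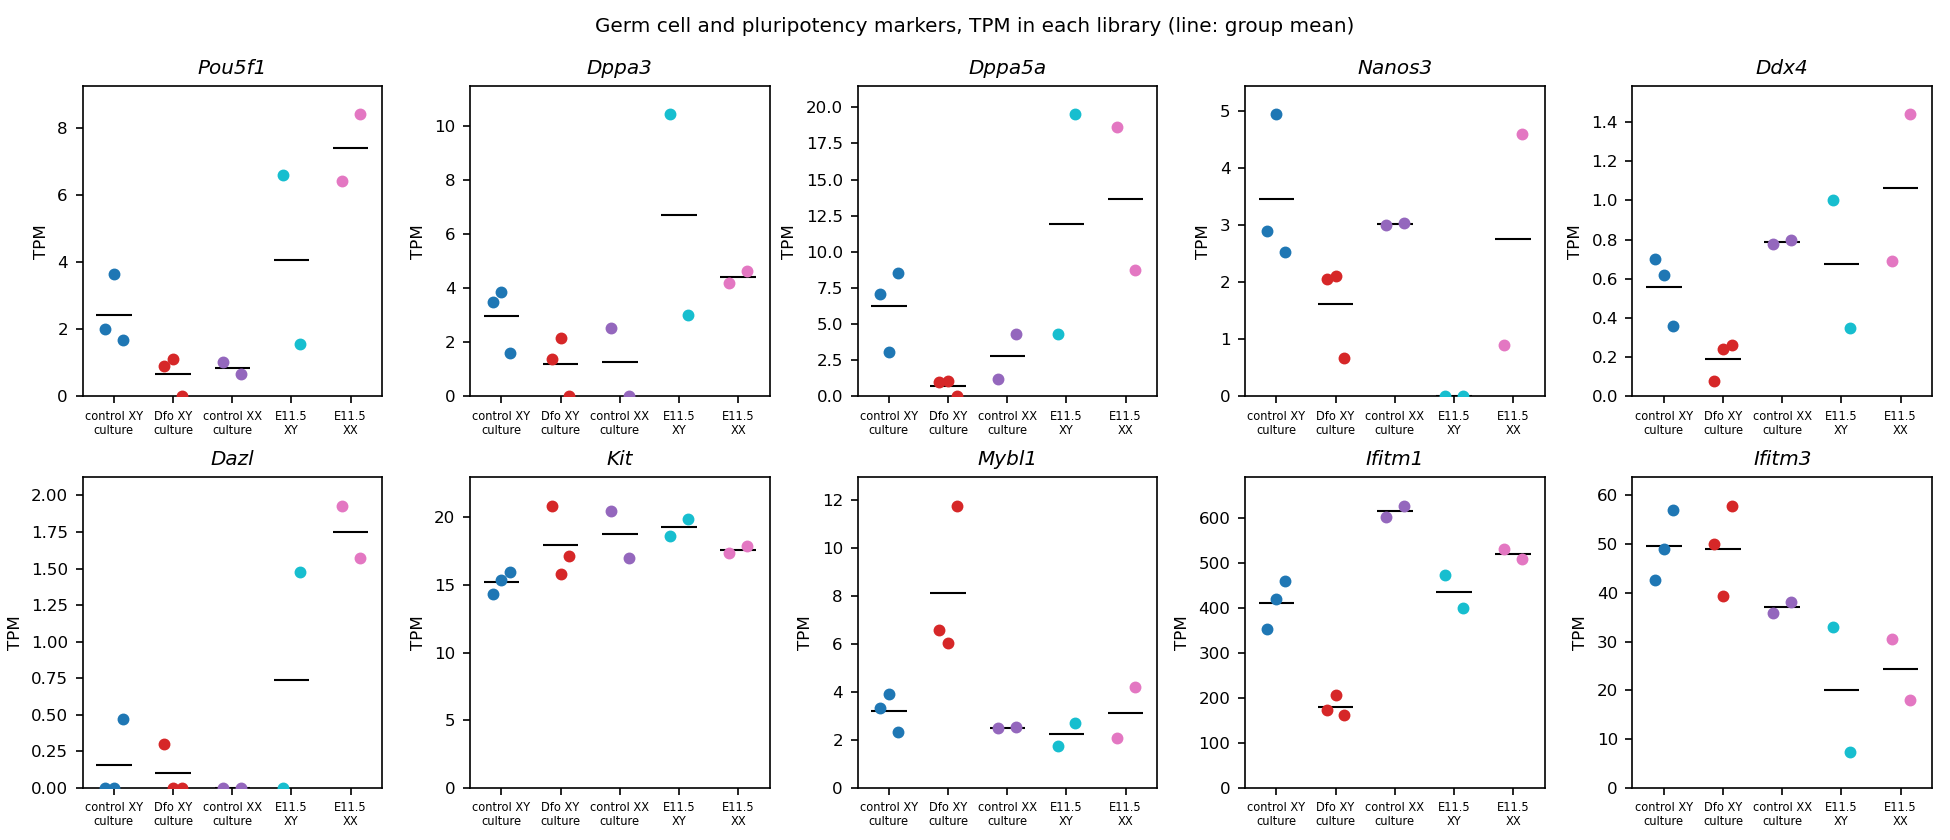
TPM of each of the 10 genes (vertical axes, each from 0 with its own scale) in the 5 groups, with 1 point per library and a line at the group mean. Ifitm1 shows 3 Dfo libraries between 161 and 206 TPM, below every other library, and Kit stays between 14.3 and 20.9 TPM throughout.

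Pou5f1 (chromosome 17, 35506018 to 35510772, mm10), which encodes the pluripotency factor OCT4, was highest at E11.5. The XY libraries of that age had 6.60 and 1.57 TPM, and the XX libraries 6.42 and 8.42 TPM. Control XY culture had 2, 3.65 and 1.68 TPM, Dfo XY 0.90, 1.11 and 0 TPM, and control XX culture 1.04 and 0.68 TPM. All cultured XX and Dfo libraries therefore lay below all control XY libraries, and E11.5 XY replicate 2 lay just below the lowest control XY library.

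Dppa3 (chromosome 6, 122626410 to 122630272), also called Stella, protects the maternal genome from demethylation in the zygote and marks primordial germ cells. Its values were 3.51, 3.85 and 1.61 TPM in control XY culture, 1.39, 2.16 and 0 in Dfo XY, 2.55 and 0 in control XX culture, 10.5 and 3.01 in XY of E11.5, and 4.20 and 4.64 in XX of E11.5. The 2 libraries listed at 0 were both cultured, and the control XY and Dfo ranges overlapped. Of the 50-base windows of its transcript, 17.7% also occur in other annotated genes, mainly its pseudogene Dppa3-ps, so its counting is uncertain.

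Dppa5a (chromosome 9, 78367052 to 78368177) encodes a small RNA-binding protein of pluripotent cells. It had 7.11, 3.04 and 8.56 TPM in control XY culture and 1.01, 1.05 and 0 TPM in Dfo XY, without overlap. It had 1.22 and 4.33 TPM in control XX culture, 4.30 and 19.5 TPM in XY of E11.5, and 18.6 and 8.71 TPM in XX of E11.5. The 2 E11.5 XY libraries differed by more than the group means of E11.5 XY and control XY culture did. Other annotated genes, among them Pigp, Dppa5b and Dppa5c, share 38.6% of the windows of its transcript, the largest share among the 10 genes. Its counting is therefore uncertain, since reads could be split with these genes.

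Nanos3 (chromosome 8, 84173731 to 84185217), an RNA-binding protein that germ cells need for survival during migration, had a different pattern. It was listed at 0 in both E11.5 XY libraries and stood at 0.90 and 4.61 TPM in E11.5 XX. Cultured libraries had 2.90, 4.95 and 2.54 TPM in control XY, 2.06, 2.12 and 0.67 TPM in Dfo XY, and 3 and 3.04 TPM in control XX. Pou5f1, Dppa3 and Dppa5a were all above 1 TPM in the 2 E11.5 XY libraries in which Nanos3 was at 0.

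Ddx4 (chromosome 13, 112598333 to 112652475), the germ cell RNA helicase also called VASA, was above 0 in all 12 libraries. It reached 1 TPM in only 2, both of E11.5, and so entered the tests through E11.5 alone. It had 0.70, 0.62 and 0.36 TPM in control XY culture and 0.08, 0.24 and 0.26 TPM in Dfo XY, without overlap. Control XX culture had 0.78 and 0.80 TPM, XX of E11.5 0.69 and 1.44, and XY of E11.5 1 and 0.35. Dazl (chromosome 17, 50279395 to 50293636), an RNA-binding protein that licenses germ cells for sexual differentiation, was above 0 in 5 libraries: 1.93 and 1.57 TPM in E11.5 XX, 1.48 in E11.5 XY replicate 2, 0.47 in control XY replicate 3 and 0.30 in Dfo XY replicate 1. Of the 12 libraries only those 3 of E11.5 reached 1 TPM of Dazl, so it entered the tests through E11.5 alone.

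Kit (chromosome 5, 75574916 to 75656722), the receptor tyrosine kinase of germ cells, mast cells and blood progenitors, varied least. Its values were 14.3, 15.4 and 16.0 TPM in control XY culture, 20.9, 15.8 and 17.2 in Dfo XY, 20.5 and 16.98 in control XX culture, 18.6 and 19.9 in XY of E11.5, and 17.4 and 17.9 in XX of E11.5. It differed by adjusted p below 0.05 in none of the 6 comparisons, with log2 changes between -0.40 and 0.22 and unadjusted p of at least 0.0650. Among markers of blood progenitors and mast cells, at least 8 of 9 were above 0 in each library, with sums of 57.8 to 124.5 TPM, and their part in the Kit level was not tested.

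Mybl1 (chromosome 1, 9667415 to 9700209), the transcription factor A-MYB that drives meiotic genes in spermatocytes, was highest with Dfo. The Dfo XY libraries had 6.58, 6.04 and 11.8 TPM, above the 3.34, 3.93 and 2.33 TPM of control XY culture. Control XX culture had 2.51 and 2.53 TPM, XX of E11.5 2.09 and 4.20, and XY of E11.5 1.74 and 2.73. No other library reached the lowest Dfo value.

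Ifitm1 (chromosome 7, 140967221 to 140969825), a membrane protein first known as Fragilis2 in germ cells and as an interferon-induced antiviral factor, was lowest with Dfo. It stood at 354, 419.7 and 460.0 TPM in control XY culture and at 173.7, 206 and 161 TPM in Dfo XY. Control XX culture had 603 and 628 TPM, XX of E11.5 532 and 510.0, and XY of E11.5 474 and 400.0. The groups were ordered control XX culture, E11.5 XX, E11.5 XY, control XY culture and Dfo XY by mean, and only the neighbours E11.5 XY and control XY culture overlapped. Ifitm3 (chromosome 7, 141009586 to 141010770), the Fragilis gene of early germ cells, lies nearby on the opposite strand. It had 42.7, 49.1 and 57.1 TPM in control XY culture, 49.96, 39.4 and 57.9 in Dfo XY, 35.9 and 38.1 in control XX culture, 33.0 and 7.43 in XY of E11.5, and 30.6 and 18.1 in XX of E11.5. The 8 cultured libraries all lay above the 4 E11.5 libraries. Of the windows of their transcripts, 6.36% for Ifitm1 and 10.0% for Ifitm3 occur in other annotated genes, including each other.

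The first comparison concerns cultured XY gonads with and without Dfo, the comparison that asks which genes differ when iron is chelated. Of the 10 genes, 1 rose (Mybl1) and 2 fell (Ifitm1 and Dppa5a), beside 15.5% of all 16133 genes tested (4.98% rose and 10.5% fell). That all-gene balance turned with the scaling of the libraries, from 803 higher and 1695 lower to 1520 and 1024 under median-of-ratios scaling, 1268 and 1184 under quantile normalization and 1202 and 1236 without the 50 most abundant genes, while 1 of the 10 genes was higher and 2 were lower under all 3. Ifitm1 went from 411 ± 53.5 to 180.4 ± 23.1 TPM (SD, n = 3 each), a log2 change of -1.18 ± 0.12 (SE), 2.27-fold lower (limma, adjusted p = 3.26e-05). Dppa5a went from 6.24 ± 2.86 to 0.69 ± 0.60 TPM (SD, n = 3 each), a log2 change of -2.08 ± 0.54 (adjusted p = 0.0215 in limma). Mybl1 went from 3.2 ± 0.81 to 8.13 ± 3.17 TPM (SD, n = 3 each), a log2 change of 1.09 ± 0.30 (limma, adjusted p = 0.0306). Changes are differences of log2(TPM + 1), a scale that makes those of low genes look smaller than they are. In bulk samples, fewer cells of a type and less RNA per cell cannot be told apart.

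The other 7 genes did not pass the test, and most pointed down. Pou5f1 had a log2 change of -1.07 ± 0.42 (limma, adjusted p = 0.107), Dppa3 of -0.97 ± 0.55 (0.267), Nanos3 of -0.79 ± 0.40 (0.216) and Ddx4 of -0.38 ± 0.30 (0.427). Dazl had -0.06 ± 0.37, Ifitm3 -0.02 ± 0.38 and Kit 0.22 ± 0.14. In 6 of the 10 genes the Dfo and control libraries did not overlap, 5 lower and 1 higher with Dfo, beside 38% of all genes (26.5% lower and 11.6% higher). The median log2 change of the 10 genes was -0.59, beside -0.17 over all genes tested.

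The calls differed in how far they rested on single libraries. Ifitm1 kept its call in all settings tried, with log2 changes between -1.34 and -1.03. Dppa5a lost its call without control XY replicate 1 (limma, adjusted p = 0.0755), control XY replicate 3 (0.0845) or Dfo XY replicate 3 (0.0736), and with replicates 1 and 2 of cultured XY averaged (0.0621). Mybl1 lost its call without a filter on low values (limma, adjusted p = 0.0560), without any 1 of control XY replicates 1, 2 and 3 (0.0752, 0.0521 and 0.106), without Dfo XY replicate 1 or 3 (0.0564 and 0.105) and with replicates 1 and 2 averaged (0.0965). Leaving out Dfo XY replicates 1 and 2, which held Xist, keeps only replicate 3 in that group, so lost calls there say little. The log2 change was then -2.76 for Dppa5a and 1.62 for Mybl1, beside -2.08 and 1.09 with all libraries.

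The 6 genes of the 10 that are most restricted to germ cells and pluripotent cells, Pou5f1, Dppa3, Dppa5a, Nanos3, Ddx4 and Dazl, were also summed in each library as a description. Their sum was 15.2 to 16.2 TPM in control XY culture and 0.93 to 6.68 TPM in Dfo XY. It was 8.59 to 8.85 TPM in control XX culture, 22.4 to 25.9 TPM in E11.5 XY and 29.4 to 32.8 TPM in E11.5 XX. No groups overlapped in this sum, although the single genes that made it up differed between libraries of a group. In each comparison of 2 groups made here, 38% to 53.7% of all genes did not overlap either. How often all 5 groups separated over all genes was not counted. In Dfo XY replicate 3, 4 of the 6 genes were listed at 0. The somatic markers of NR5A1-positive cells were lower with Dfo as well. Of 7, 4 fell: Wt1 (-0.38 ± 0.08), Emx2 (-0.71 ± 0.15), Cyp11a1 (-1.21 ± 0.31) and Lhx9 (-0.48 ± 0.15). With median-of-ratios scaling 1 of the 7 fell. Of 22 alternative settings, Wt1 lost its call in 3, Emx2 in 1, Cyp11a1 in 7 and Lhx9 in 19. Of mesenchyme markers 2 of 7 fell (927 to 1032 TPM summed in control XY and 675 to 821 in Dfo XY, 7 of 7 above 0). Median log2 changes were 0.70 for red blood cells, 0.38 for macrophages and 0.03 for endothelium, with 0 called in each. They were -0.19 for blood progenitors and mast cells (0 called), -0.37 for mesonephric epithelium (1 of 6 lower) and -0.79 for neural crest (1 of 7 higher and 1 lower). The part of these cells in the sum was not tested.

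**Figure D2:**
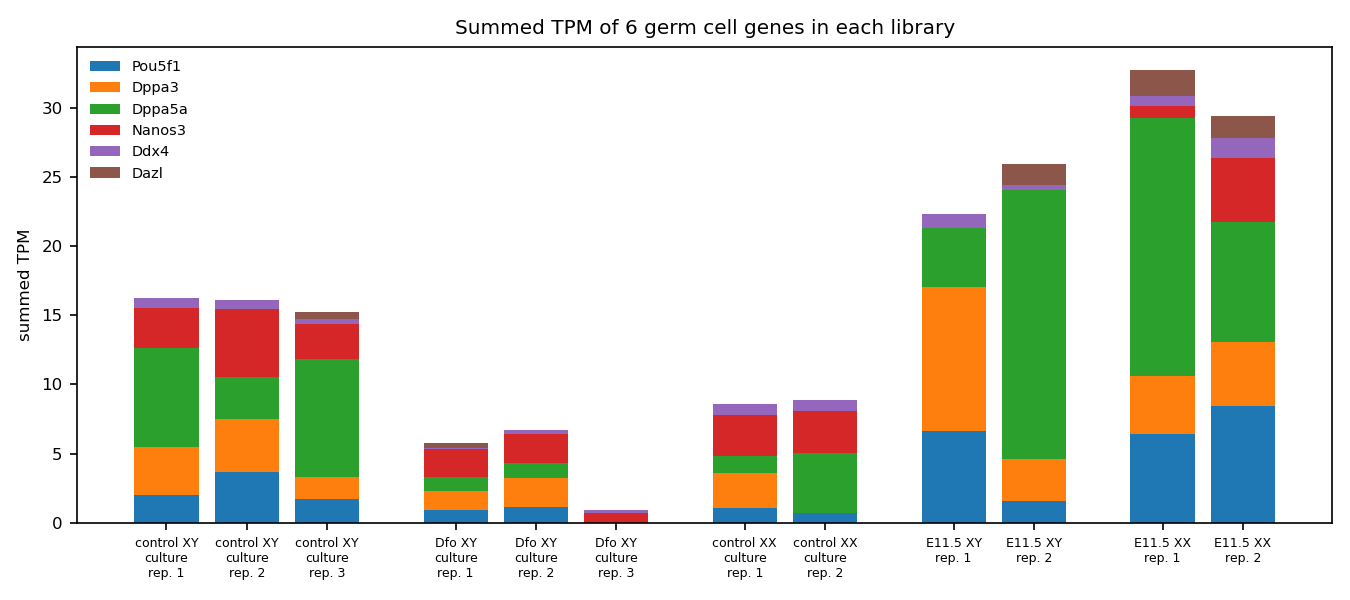
Summed TPM of 6 germ cell genes (vertical axis, from 0) in each of the 12 libraries, stacked by gene. Dfo XY libraries reach 0.93 to 6.68 TPM and E11.5 libraries 22.4 to 32.8 TPM, with Dppa5a making up much of E11.5 XY replicate 2 and Dppa3 much of replicate 1.

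Other genes of primordial germ cells, from a list of 28 of which 26 were tested, were compared in the same fit. With Dfo 1 rose and 4 fell, where 4.98% of all genes rose and 10.5% fell. The list median was -0.60 beside -0.17 over all genes. Tdh, the threonine dehydrogenase of pluripotent cells, had 2.22, 3.07 and 4.17 TPM in control XY and 0.12, 1.51 and 0.20 TPM in Dfo XY (log2 change -1.44 ± 0.35, limma, adjusted p = 0.0159). Sall4, a zinc finger factor of stem and germ cells, had 5.64, 4.92 and 7.40 against 2.44, 3.15 and 2.88 TPM (-0.86 ± 0.25, limma, adjusted p = 0.0342). The X-linked homeobox gene Rhox9 and Alpl, the alkaline phosphatase long used to stain germ cells, fell by 1.08 and 1.15 on the log2 scale (limma, adjusted p = 0.0376 and 0.0439). Alpl was named after its value was seen, and its call was not followed through the alternative settings. Of these calls that of Rhox9 was lost in 11 of 22 alternative settings (adjusted p up to 0.160 in limma), among them a pseudocount of 0.1 (0.142), no filter (0.0608), the stricter filter (0.0545), quantile normalization (0.108) and the omission of any 1 of control XY replicates 1, 2 and 3 (0.0853, 0.104 and 0.0922) and Dfo XY replicates 1 and 3 (0.115 and 0.0984). That of Sall4 was lost in 10 of 22 (adjusted p up to 0.267) and that of Tdh in 5 of 21 (up to 0.0693). The gene that rose was Klf4, a pluripotency factor that is also an immediate response gene of many somatic cells, from 10.1, 12.9 and 10.4 to 45.4, 45.7 and 32.6 TPM (1.79 ± 0.25, limma, adjusted p = 5.28e-04). Its call was lost in 1 of 22 settings, the omission of both Dfo libraries with Xist, which keeps only Dfo XY replicate 3 in its group. Leaving out any 1 of the 6 cultured XY libraries left 0 to 2 of the list lower, and leaving out control XX replicate 1 or 2 left 6 or 7 lower.

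Of 35 listed genes of the later germ line and of meiosis, 20 were too low to test. Among the 15 tested 1 fell, Rec8, the cohesin subunit of meiotic chromosomes, and 0 rose, beside 10.5% and 4.98% of all genes. Rec8 had 23.5, 22.2 and 28.4 TPM in control XY culture and 7.94, 7.74 and 5.28 TPM in Dfo XY (log2 change -1.70 ± 0.23, limma, adjusted p = 3.98e-04). It had 29.7 and 41.6 TPM in control XX culture, 28.3 and 15.2 in XY of E11.5, and 40.5 and 32.5 in XX of E11.5. Rec8 was thus above Pou5f1, Ddx4 and Dazl in every library by TPM, and its call held in all settings tried.

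Of 17 tested signals that the gonadal soma sends to germ cells, 6 fell and 0 rose with Dfo, beside 10.5% and 4.98% of all genes. Their median was -0.52 beside -0.17 over all genes. Aldh1a2, the retinaldehyde dehydrogenase that makes retinoic acid, went from 211, 235 and 252 to 112, 114.7 and 89.4 TPM (-1.14 ± 0.10, limma, adjusted p = 1.85e-05). Kitl, the ligand of KIT, went from 100.4, 101.6 and 119.7 to 71.3, 80.8 and 73.2 TPM (-0.51 ± 0.10, limma, adjusted p = 0.00683). Igf1 and Aldh1a1 also fell, by 0.87 and 1.63 on the log2 scale. Cxcl12, the chemokine that guides migrating germ cells, had 149 to 183 TPM in control XY and 172 to 186 TPM in Dfo XY (limma, adjusted p = 0.638). Without both Dfo libraries with Xist, which keeps only Dfo XY replicate 3 in its group, the log2 change of Kitl was -0.54.

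**Figure D3:**
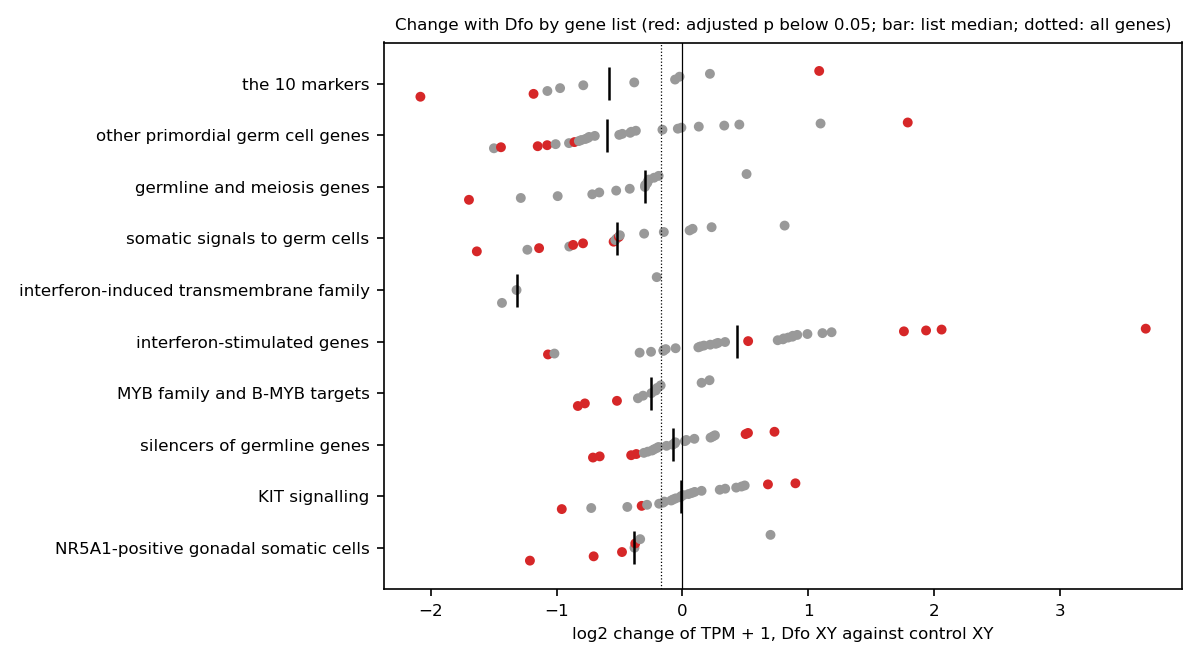
Log2 change with Dfo (horizontal axis, log2 of TPM + 1) of every tested gene, in rows by list, with calls in red, a bar at each list's median and a dotted line at the median of all genes, -0.17. The 10 markers and the other germ cell genes have medians of -0.59 and -0.60, and the interferon-stimulated genes one of 0.43.

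Ifitm1 and its neighbours differed from one another. Ifitm2, next to Ifitm1 on chromosome 7 (140954837 to 140955987), had 326, 335 and 221 TPM in control XY culture and 302, 276 and 189 TPM in Dfo XY (log2 change -0.20, limma, adjusted p = 0.550). Ifitm3 had a log2 change of -0.02 ± 0.38. Of these 3 genes Ifitm1 alone was called with Dfo, and whether its change differs from those of its neighbours was not tested. Ifitm5 and Ifitm7 were tested too, at 0 to 8.33 TPM and with log2 changes of -1.43 ± 0.54 and -1.32 ± 0.80 (limma, adjusted p = 0.0937 and 0.302), while Ifitm6 and Ifitm10 were too low to test.

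**Figure D4:**
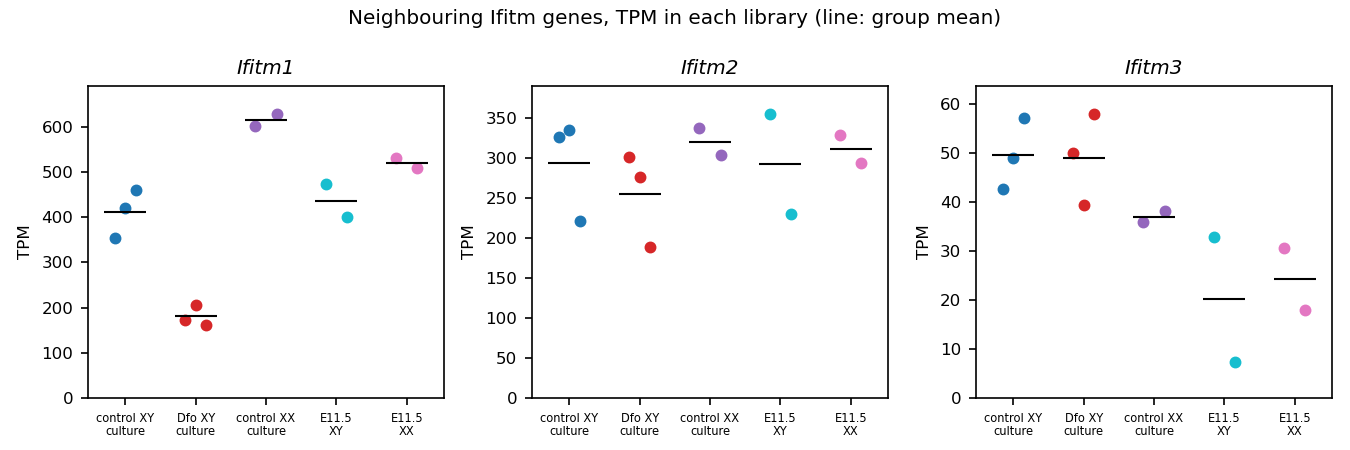
TPM of Ifitm1, Ifitm2 and Ifitm3 (vertical axes from 0) in the 5 groups, with 1 point per library and a line at the mean. Dfo libraries are the lowest for Ifitm1 (161 to 206 TPM) and overlap the control XY libraries for Ifitm2 (189 to 302 TPM) and Ifitm3 (39.4 to 57.9 TPM).

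Interferon-stimulated genes were examined because the Ifitm family is named for its response to interferon. Of 30 tested, 5 rose and 1 fell with Dfo, where 4.98% of all genes rose and 10.5% fell. The list median was 0.43 beside -0.17 over all genes. Cxcl10, an interferon-induced chemokine, went from 0.71, 0.70 and 0.72 to 19.4, 17.6 and 26.9 TPM (3.68 ± 0.32, limma, adjusted p = 9.97e-06). Rsad2, the antiviral enzyme viperin, and Ifit1 rose by 1.94 and 2.06 on the log2 scale. The gene that fell was Bst2, the membrane protein tetherin, from 45.5, 49.96 and 69.1 to 28.7, 19.8 and 28.1 TPM (-1.07 ± 0.17, limma, adjusted p = 0.00129). With median-of-ratios scaling 11 rose and 1 fell, and with quantile normalization 12 rose and 1 fell. Ifitm1 thus moved with Bst2 and opposite to the other called genes of the list. Markers of macrophages, which express many such genes, summed to 90.4 to 165 TPM in control XY and 120.4 to 179 TPM in Dfo XY, with 10 of 10 above 0 in each, and their part was not tested.

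RefSeq promoter windows (build GRCm38.p6, from 250 bases before to 50 bases after the annotated start) were found for 7 of the 10 genes and searched on both strands. The interferon response motif, GAAA followed after any 2 bases by GAAA, had 2 matches in the Ifitm3 window, 1 in that of Ifitm2 and 0 in that of Ifitm1, and 3.44% of all 32851 windows held it. The Ifitm1 window lies inside the gene span given above, downstream of the first base of that span at 140967221. The Ifitm2 and Ifitm3 windows instead reach across the upstream end of their spans. The upstream end of the Ifitm1 span was therefore not searched, and the 3 counts do not compare like regions. The Nanos3 window also lies inside its gene span, as does 1 of the 2 windows of Pou5f1. Kit had 2 windows too, and both reach across the upstream end of its span. The stretches are shown to set the letters of these 3 Ifitm neighbours beside their values with Dfo. Ifitm2 (chr7:140955988-140956137, minus strand) and Ifitm1 (chr7:140967878-140968027, plus strand) are given as 150 bases of their windows, and Ifitm3 (chr7:141010715-141010744, minus strand) as the 30 bases after its RefSeq start that hold both matches. Capitals mark the matches.
Ifitm2: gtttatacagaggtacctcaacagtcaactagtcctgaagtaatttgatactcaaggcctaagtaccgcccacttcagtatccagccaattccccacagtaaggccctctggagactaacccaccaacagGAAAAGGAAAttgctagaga
Ifitm1: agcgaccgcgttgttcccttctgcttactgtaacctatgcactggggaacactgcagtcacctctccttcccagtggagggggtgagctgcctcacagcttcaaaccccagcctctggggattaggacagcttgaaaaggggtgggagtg
Ifitm3: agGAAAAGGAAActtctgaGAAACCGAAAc
A match is a description of letters and not a shown binding site, and the absence of a match says only that these letters are not in this window. The octamer ATGCAAAT, bound by OCT4, was in none of the windows of the 7 genes and in 1.74% of all. The E-box CACGTG (7.15% of all windows) and the E2F motif TTCCCGCC (2.19%) each occurred once in the Ddx4 window and in none of the other 6 genes, and TTTCCCGC (1.07%) in none of the 7. The core ACGTG of hypoxia response elements, which lies within CACGTG, occurred in the windows of Ddx4, within its E-box, and Dazl and in 19.6% of all.

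MYB family genes and targets of the related B-MYB in the cell cycle were tested beside Mybl1. With Dfo 0 of 11 rose and 3 fell, beside 4.98% and 10.5% of all genes. Those that fell were Plk1, a mitotic kinase (-0.83 ± 0.12, limma, adjusted p = 7.64e-04), and the cyclins Ccnb1 (-0.78 ± 0.15) and Ccna2 (-0.52 ± 0.11). Mybl2, which encodes B-MYB, had 8.73 to 13.5 TPM in control XY and 9.42 to 17.7 TPM in Dfo XY. Myb had 2.93, 4.32 and 3.63 TPM in control XY and 2, 2.78 and 3.45 TPM in Dfo XY. Neither passed the test (limma, adjusted p = 0.749 and 0.525), and whether Mybl1 differed from them was not tested.

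Of 25 tested genes of signalling below KIT, 2 were higher and 2 lower with Dfo, a share near the 15.5% called among all genes, with a median of -0.01. Cblb, a ubiquitin ligase that limits receptor signalling, rose from 24.8, 24.2 and 23.2 to 38.9, 36.5 and 42.0 TPM (0.68 ± 0.11, limma, adjusted p = 0.00105), and the adaptor Sh2b2 rose by 0.90. Ptpn6, the phosphatase SHP-1, and Akt1 fell by 0.96 and 0.32 on the log2 scale. Of 22 alternative settings the call of Cblb was lost in 0, Sh2b2 in 8, Ptpn6 in 5 and Akt1 in 9.

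**Figure D5:**
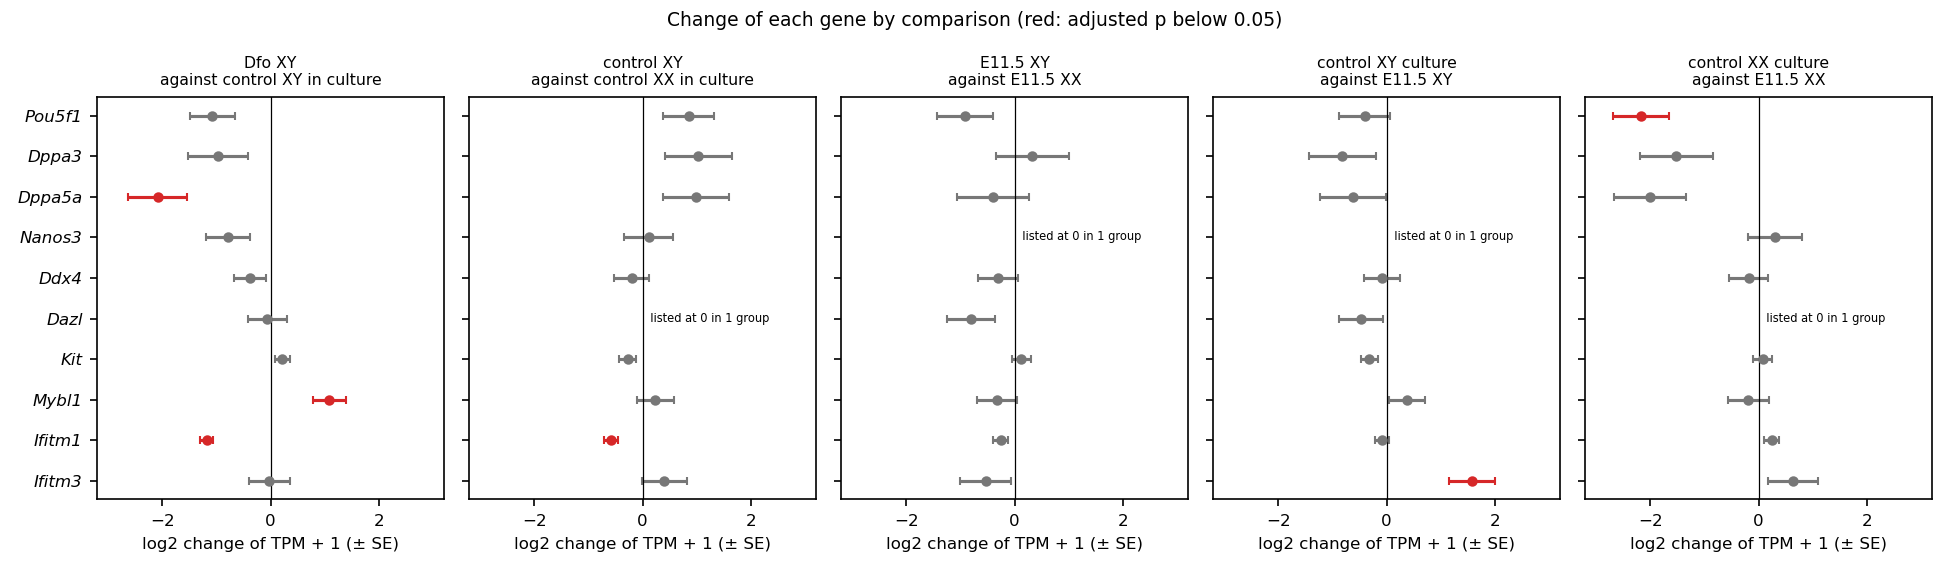
Log2 change of TPM + 1 with its SE (horizontal axes) for the 10 genes in 5 comparisons, with adjusted p below 0.05 in red. The first panel shows Dppa5a and Ifitm1 lower and Mybl1 higher with Dfo, and a gene listed at 0 throughout 1 of the groups has no point.

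The comparison of control XY with control XX in culture asks how the sexes differ after culture, and shares its control XY libraries with the Dfo comparison. Of the 10 genes 0 were higher and 1 lower in XY, beside 25.2% of all genes (2.97% higher and 22.2% lower). The excess of lower genes depended on the scaling: 479 higher and 3585 lower became 529 and 499 under median-of-ratios scaling, 304 and 318 under quantile normalization and 523 and 762 without the 50 most abundant genes. The 1 called gene was Ifitm1, at 411 ± 53.5 TPM (SD, n = 3) in XY and 616 ± 17.5 TPM (SD, n = 2) in XX, a log2 change of -0.59 ± 0.13 (limma, adjusted p = 0.00726). The call did not hold under other scalings of the libraries: the log2 change was -0.26 with median-of-ratios scaling (limma, adjusted p = 0.291), -0.41 with quantile normalization (0.0947) and -0.32 without the 50 most abundant genes (0.152). It was also lost without control XX replicate 2 (limma, adjusted p = 0.0519). The median of all genes was -0.22 in this comparison, and 0.069, -0.0069 and 0.017 under these scalings.

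Several germ cell genes had higher means in cultured XY than XX without passing the test. Pou5f1 had 2.44 ± 1.06 and 0.86 ± 0.25 TPM (SD, n = 3 and 2; log2 change 0.85 ± 0.47, limma, adjusted p = 0.207), without overlap. Dppa3 and Dppa5a had log2 changes of 1.03 ± 0.62 and 0.98 ± 0.61, with overlap. Dazl was listed at 0 in both XX libraries. In 5 of the 10 genes the libraries did not overlap, 2 higher and 3 lower in XY, beside 53.7% of all genes (12.3% higher and 41.4% lower). Of 26 other primordial germ cell genes 4 were higher and 1 lower in XY, and 0 of either under quantile normalization. Among the 7 somatic markers of NR5A1-positive cells 6 were lower in XY. Markers of red blood cells (4 of 10 higher, 330 to 2551 TPM in XY and 243 to 272 in XX, at least 9 of 10 above 0) and macrophages (4 of 10 higher, 90.4 to 165 TPM in XY and 53.3 to 77.4 in XX) were higher in XY. So were those of neural crest (5 of 7 higher, 53.5 to 110.0 TPM in XY and 27.6 to 36.1 in XX, 7 of 7 above 0), while 4 of 7 of mesenchyme were lower (927 to 1032 and 1358 to 1463 TPM, 7 of 7 above 0). Of endothelial and mesonephric markers 2 of 10 and 2 of 6 were higher in XY, and 1 of 8 tested of blood progenitors and mast cells was lower. The part of these cell types in the values of the 10 genes was not tested.

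The KIT ligand was lower in XY in both comparisons of the sexes, and markers of the sorted cells pointed the same way. The 7 markers of NR5A1-positive cells had a median log2 change of -0.96 in culture, with 6 called lower. At E11.5 their median was -0.57, with 0 called. Their part in the level of the ligand was not tested. Kitl had 100.4 to 119.7 TPM in control XY and 195 and 208 TPM in control XX culture (log2 change -0.91 ± 0.12, limma, adjusted p = 6.56e-04), and stayed called in all settings tried. At E11.5 it had 85.6 and 82.0 TPM in XY and 153.8 and 124 TPM in XX (-0.72 ± 0.13, limma, adjusted p = 0.0208). The call at E11.5 was lost with only the compared groups (limma, adjusted p = 0.263), with replicates 1 and 2 of cultured XY averaged (0.0503), without both Dfo libraries with Xist (0.0506) and without E11.5 XX replicate 1 (0.147), E11.5 XY replicate 1 (0.0517) or E11.5 XY replicate 2 (0.0663). Kit had log2 changes of -0.28 ± 0.16 (limma, adjusted p = 0.224) and 0.12 ± 0.17 (0.746) in these 2 comparisons. Bmp2, another somatic signal, was lower in XY in both, with its call lost in 3 of 22 alternative settings in culture and in 11 of 22 at E11.5.

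At E11.5, 0 of the 10 genes were called between XY and XX by limma, beside 2.29% of all genes (1.09% higher and 1.2% lower in XY). The lowest p among the 10 was that of Nanos3, listed at 0 in both XY libraries and at 0.90 and 4.61 TPM in XX (limma, adjusted p = 0.0826, unadjusted 0.00449). Pou5f1 had 4.09 ± 3.56 TPM in XY and 7.42 ± 1.41 TPM in XX (SD, n = 2 each; log2 change -0.92 ± 0.51, limma, adjusted p = 0.348). Ifitm1 had 437 ± 52.4 and 521 ± 15.8 TPM (SD, n = 2 each; -0.26 ± 0.14, limma, adjusted p = 0.343). In 4 of the 10 genes the libraries did not overlap, 1 higher and 3 lower in XY, beside 44.4% of all genes (22.4% higher and 22.1% lower). Among 26 other germ cell genes 0 were higher and 2 lower in XY: Klf4 (8.81 and 10.5 against 50.9 and 84.9 TPM) and Rhox9 (1.79 and 2.71 against 10.0 and 11.9 TPM, limma, adjusted p = 0.0305). Klf4 lost its call in 1 of 22 alternative settings, the fit of only the compared groups (limma, adjusted p = 0.261). Rhox9 lost its call in 12 of 22, with adjusted p up to 0.261 in limma, among them the omission of any 1 of E11.5 XY replicates 1 and 2 (0.0850 and 0.0552) and E11.5 XX replicates 1 and 2 (0.147 and 0.0992), a pseudocount of 0.1 (0.197) and the stricter filter (0.0572).

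Whether XY and XX differed to another extent after culture than at E11.5 was tested as an interaction. Of the 10 genes 0 were called by limma, beside 1.33% of all genes (0.192% higher and 1.14% lower, a balance of 31 to 184 genes that was 21 to 13, 28 to 22 and 21 to 21 under the 3 other scalings). The lowest p among the 10 were those of Nanos3 (limma, adjusted p = 0.151) and Pou5f1 (1.77 ± 0.69, adjusted p = 0.176). Of the other germ cell genes Rhox9 was called (3.24 ± 0.52, limma, adjusted p = 0.0208): cultured XY had 2.53, 2.83 and 2.90 TPM and cultured XX 0 and 1.16 TPM, the reverse of its order at E11.5. That call was lost without control XY replicate 1 or 2, control XX replicate 1, E11.5 XY replicate 1 or E11.5 XX replicate 2, with adjusted p of 0.0735, 0.0738, 0.0770, 0.0802 and 0.0797 in limma. It was also lost with a pseudocount of 0.1 (limma, adjusted p = 0.0556), with only the compared groups (0.0601), with replicates 1 and 2 of cultured XY averaged (0.129) and without both Dfo libraries with Xist (0.0597).

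Cultured gonads were set against E11.5 gonads of the same sex to ask how culture compares with the embryo, and these comparisons again share the control XY and control XX libraries with those above. In XY, 2 of the 10 genes were higher in culture and 0 lower, beside 5.66% of all genes (2.62% higher and 3.04% lower). The 422 higher and 491 lower genes became 615 and 422 under median-of-ratios scaling, 742 and 474 under quantile normalization and 685 and 318 without the 50 most abundant genes. Nanos3 was called (limma, adjusted p = 0.0194) and is given no fold, since both E11.5 libraries were listed at 0. Its call was lost without control XY replicate 1 (limma, adjusted p = 0.0600), control XY replicate 2 (0.0874), E11.5 XY replicate 1 (0.0928) or E11.5 XY replicate 2 (0.0780), with only the compared groups (0.0530) and with replicates 1 and 2 of cultured XY averaged (0.101). Ifitm3 had 49.6 ± 7.21 TPM (SD, n = 3) in culture and 20.2 ± 18.0 TPM (SD, n = 2) at E11.5, a log2 change of 1.57 ± 0.42 (limma, adjusted p = 0.04995). Without E11.5 XY replicate 2, at 7.43 TPM, its log2 change was 0.57 (limma, adjusted p = 0.276), and leaving out any other library except E11.5 XY replicate 1 also ended the call. The libraries of 3 genes did not overlap, 2 higher and 1 lower in culture, beside 40.1% of all genes (13.9% higher and 26.2% lower).

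In XX, 1 of the 10 genes was lower in culture and 0 were higher, beside 9.07% of all genes (1.71% lower and 7.36% higher). The 1187 higher and 276 lower genes became 474 and 377 under median-of-ratios scaling, 435 and 292 under quantile normalization and 727 and 314 without the 50 most abundant genes. Pou5f1 had 0.86 ± 0.25 TPM in culture and 7.42 ± 1.41 TPM at E11.5 (SD, n = 2 each), a log2 change of -2.18 ± 0.51 (limma, adjusted p = 0.0209). The call was lost without control XX replicate 1 (limma, adjusted p = 0.0737) or 2 (0.0926) and without E11.5 XX replicate 1 (0.0526) or 2 (0.149), with a pseudocount of 0.1 (0.0949), with quantile normalization (0.141) and with only the compared groups (0.123). Dppa5a and Dppa3 pointed the same way (-2.0 ± 0.66 and -1.52 ± 0.68, limma, adjusted p = 0.0791 and 0.186). Dazl was listed at 0 in culture and did not pass the test (limma, adjusted p = 0.0618). It was called without a filter (limma, adjusted p = 0.0465) and with quantile normalization (0.0233), the latter in place of Pou5f1. Only libraries of E11.5 reached 1 TPM of Dazl. Markers of other cell types were lower in cultured XX as well: 7 of 10 of endothelium (136 to 151 TPM summed in culture and 396 to 458 at E11.5), 4 of 10 of red blood cells (243 to 272 and 1334 to 1851) and 2 of 8 tested of blood progenitors and mast cells (66.6 to 82.0 and 112 to 124.5), with at least 8 of each list above 0. Their part in the values of the germ cell genes was not tested. In 6 genes the libraries did not overlap, 2 higher and 4 lower in culture, beside 48.5% of all genes (34.7% higher and 13.8% lower). Of the 26 other germ cell genes 0 were higher and 2 lower, Klf4 (-1.56 ± 0.31) and Rhox9 (-3.02 ± 0.39), with calls lost in 3 and 1 of 22 alternative settings.

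Interferon-stimulated genes were also compared between culture and E11.5. In XY 12 of 30 were higher and 0 lower, among them Irf7 (2.17 ± 0.41) and B2m (1.15 ± 0.18), and in XX 4 were higher and 1 lower. Without E11.5 XY replicate 1 or 2 the XY count was 2 or 6 higher, and without control XY replicate 1 or 2 it was 7. Ifitm1 did not pass the test in either sex, with log2 changes of -0.09 ± 0.13 in XY and 0.24 ± 0.14 in XX (limma, adjusted p = 0.715 and 0.333). Macrophage markers summed to 90.4 to 165 TPM in control XY culture and 24.5 to 46.9 TPM in E11.5 XY, with 4 of 10 higher in culture, and 2 of 10 endothelial markers were lower (88.0 to 199.7 and 268 to 306 TPM). Their part in Ifitm3 was not tested.

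Among the 10 genes, the closest pair over the 12 libraries was Pou5f1 and Dppa3, with a Pearson r of 0.85 of log2(TPM + 1). Ifitm1 and Mybl1 were the most opposed pair, at -0.88, and Nanos3 and Pou5f1 had 0.02. These values describe 12 libraries that share 5 groups. Outside the 10 genes, Ifitm1 was most like Phyh, Abat and Igdcc3 (r of 0.98 each), Mybl1 most like Ccl7 (0.97), Rb1 (0.94) and Eda2r (0.91), and Dppa5a most like the histone genes Hist1h2bl (0.95) and Hist1h2bf (0.93) and Pkdcc (0.93). Pou5f1 was most like Sorbs2 (0.91), Hist2h4 (0.90) and Hist1h2ae (0.89), Kit most like Usp6nl (0.84), and Nanos3 most like Dgcr6 (0.90).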

How the data were processed

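RNA-seq was analysed from 12 libraries in 5 groups. The deposited values are TPM, 1 value per gene symbol and library. The tools named per the submitters' processing notes are R 4.1.2, RSEM and STAR 2.7.10b, with the mm10 build. The sources used here do not give the annotation, the filters or the RSEM version, and depth is unknown. Positions are from GENCODE M21 on mm10.

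Groups were compared on log2(TPM + 1) in limma (version 3.58.1, under R 4.3.3), with all 12 libraries in 1 fit, 1 coefficient per group and a variance trend. Genes of at least 1 TPM in at least 2 libraries (16133) were tested, Benjamini-Hochberg adjustment was made within each of 6 comparisons, and genes were called at adjusted p below 0.05. The method was tested on simulated data. All 10 genes passed the filter, Ddx4 and Dazl through E11.5 libraries alone. The genes and lists were chosen with earlier results of these data known. Named by rule were all 10 genes, up to 4 called genes per list and comparison by smallest adjusted p, up to 4 more by mean level where fewer were called, and, for markers of at least 1 TPM on average, the 3 genes most alike by Pearson r. Alpl, Cxcl12, Myb and Mybl2 fell outside it and were named after their values were seen.

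Replicate numbers come from the sample titles. Libraries of control XY and Dfo XY with the same number deviated together across genes (r = 0.21, 0.12 and 0.34), above the 0.1 taken as pairing, although control XY replicate 1 had 0.14 with Dfo XY replicate 2, and control XY replicate 2 had 0.18 with Dfo XY replicate 1, more than with its own number. The replicate block changed no call of the 10 genes in that comparison. In groups of 2 libraries the deviations mirror each other, so the check cannot decide on pairing in the other comparisons. Control XY and E11.5 XY had r = 0.14 for replicates 1 and -0.09 for replicates 2. Alternatives were another pseudocount, filter, scaling and set of libraries.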

Additional observations from a re-analysis of the deposited data

How the results depend on the processing

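Averaging replicates 1 and 2 of each cultured XY group, and leaving out both Dfo libraries with Xist, were chosen after seeing the data. The latter keeps only Dfo XY replicate 3 in its group, so its counts with Dfo are not given. Ifitm1 kept its direction and call with Dfo in all alternatives. Where values moved, the cause was not tested. Counts of the 10 genes called were as follows. With Dfo the count was 3, and 1 to 3 without 1 library, 2 without a filter (Mybl1 lost) and 1 with averaging. Between sexes in culture it was 1, and 0 to 1 without 1 library and 0 under median-of-ratios scaling, quantile normalization or omission of the 50 most abundant genes. Between sexes at E11.5 it was 0, and 0 to 1 without 1 library and 1 with a pseudocount of 0.1. For XY culture against E11.5 it was 2, and 0 to 1 without 1 library, 1 with a pseudocount of 0.1, without a filter, with the stricter filter (5 TPM) or without the Xist libraries, and 0 with only the compared groups or with averaging. For XX culture against E11.5 it was 1, and 0 to 2 without 1 library, 0 with a pseudocount of 0.1 or only the compared groups, and 2 without a filter. For the interaction it was 0 in all alternatives.

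Counts over all genes moved more. With Dfo 2498 genes were called, 1485 to 2586 without 1 library, 833 with averaging and 858 without the Xist libraries. Between sexes in culture 4064 were called, 1915 to 4337 without 1 library, 1028 under median-of-ratios scaling, 622 under quantile normalization, 1285 without the top 50 genes and 1759 with averaging. Between sexes at E11.5 370 were called, 53 to 638 without 1 library, 565 without a filter, 228 with the stricter filter, 0 with only the compared groups, 88 with averaging and 98 without the Xist libraries. For XY culture against E11.5 913 were called, 279 to 1467 without 1 library, 210 with only the compared groups and 184 with averaging. For XX culture against E11.5 1463 were called, 433 to 1677 without 1 library, 851 under median-of-ratios scaling, 727 under quantile normalization, 0 with only the compared groups and 852 with averaging. For the interaction 215 were called, 14 to 708 without 1 library, 325 with the stricter filter, 34, 50 and 42 under median-of-ratios scaling, quantile normalization and omission of the top 50, 20 with only the compared groups, 8 with averaging and 20 without the Xist libraries.

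With the replicate block, 1 of the 10 genes was called between sexes at E11.5, Nanos3 (limma, adjusted p = 0.0441), and all-gene counts were 971 there, 2592 for XY culture against E11.5 and 1758 for the interaction. The block changed no call of the 10 genes with Dfo (Dppa5a, limma, adjusted p = 0.0357).

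Some log2 changes near 0 changed sign. With Dfo, Ifitm3 (-0.02) ranged from -0.15 to 0.12 without 1 library and was 0.13 under median-of-ratios scaling, 0.0095 under quantile normalization, 0.072 without the top 50 and 0.23 without the Xist libraries, and Dazl (-0.06) ranged from -0.19 to 0.13 without 1 library and was 0.13 under quantile normalization. Between sexes in culture, Kit (-0.28) was 0.033 under median-of-ratios scaling, and Nanos3 (0.11) ranged from -0.11 to 0.26 without 1 library. For XY culture against E11.5, Ifitm1 (-0.09) ranged from -0.21 to 0.032 without 1 library and was 0.0077, 0.054 and 0.031 under the 3 scalings, and Ddx4 (-0.08) ranged from -0.36 to 0.20 and was 0.075 under quantile normalization. In the same comparison Pou5f1 ranged from -1.18 to 0.38, Dppa5a from -1.60 to 0.36 and Dazl from -1.13 to 0.19 without 1 library. For XX culture against E11.5, Kit (0.08) ranged from -0.050 to 0.21 without 1 library and was -0.096, -0.089 and -0.024 under the 3 scalings, Nanos3 ranged from -0.48 to 1.08, Ddx4 from -0.45 to 0.083 and Mybl1 from -0.56 to 0.19. Between sexes at E11.5 Dppa3 ranged from -0.43 to 1.08, Dppa5a from -1.38 to 0.57, Ifitm3 from -1.54 to 0.47 and Mybl1 from -0.70 to 0.049. For the interaction Dppa3 ranged from -0.21 to 1.62, Ddx4 from -0.18 to 0.38 and Ifitm3 from -0.066 to 1.94. Depth is not kept in TPM, and genes near 1 TPM such as Ddx4 and Dazl were limited most.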

Other observations

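Genes that keep germ cell genes silent in somatic cells, such as DNA methyltransferases, Polycomb subunits and E2F6 partners, were tested as a list of 23. With Dfo 3 rose and 4 fell, where 4.98% of all genes rose and 10.5% fell. The list median was -0.08 beside -0.17 over all genes. Tet2, which oxidises methylated cytosine in an iron-dependent reaction, rose from 26.2, 26.4 and 27.9 to 43.5, 45.0 and 47.1 TPM (log2 change 0.73 ± 0.10, limma, adjusted p = 4.12e-04). Rybp, a Polycomb subunit, rose from 32.5, 33.3 and 39.0 to 49.9, 49.1 and 52.1 TPM (0.52 ± 0.11, limma, adjusted p = 0.00749). The DNA methyltransferases Dnmt3b and Dnmt3a fell by 0.71 and 0.41 on the log2 scale, with calls lost in 4 and 5 of 22 alternative settings. With median-of-ratios scaling 6 of the list rose and 2 fell.

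Between cultured XY and XX, 0 of the 23 were higher and 18 lower in XY, with a median of -0.59 beside -0.22 over all genes. Rybp, Mga and Dnmt3a were among them, as was Kdm5c, an X-linked demethylase that escapes X inactivation. Only 5 were lower with median-of-ratios scaling, 1 with quantile normalization and 5 without the 50 most abundant genes, and 7 or 9 were lower without control XX replicate 1 or 2. For XX culture against E11.5 XX, 5 were higher and 0 lower, among them Tet1, Tet2 and Tet3, whose calls were lost in 13, 14 and 1 of 22 alternative settings.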
